A study of Homo sapiens with 6 samples.

Results

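The genes described here encode the machinery that brings new secretory and membrane proteins into the endoplasmic reticulum (ER) and the coat that carries them out of it. They were taken from a list of 38 gene symbols. A listed gene was measured where the array annotation gave it a probe set with no other symbol, and its brightest probe set by the mean of all 6 arrays stood for it. This held for 36 of the 38 genes, out of 18417 genes tested in the series. SEC61G and KDELR2 had no such probe set and were not analysed here.

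Expression was measured on Affymetrix whole-transcript arrays in MDA-MB-231, an established human breast cancer cell line that is commonly used as a model of mesenchymal, triple-negative disease. The control group was 3 cultures given the vehicle DMSO, and the treated group was 3 cultures given YW3-56 at 10 µM for 8 h. YW3-56 is a small-molecule inhibitor of peptidylarginine deiminases, enzymes that turn arginine in proteins into citrulline. All cultures were of 1 line, the treatment was given at 1 dose and 1 time, and the labels call the replicates biological. They do not say how the cultures were kept apart, so p-values measure the spread between these arrays.

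Values are the deposited log2 expression values. A gene was called higher or lower when limma's moderated test across all genes gave a Benjamini-Hochberg adjusted p under 0.05. Changes are YW3-56 minus DMSO on the log2 scale with their standard error (SE), from 3 arrays per group. Array medians over all probe sets lay between 7.55 and 7.74, arrays of the same group correlated over genes at 0.990 to 0.997 and arrays of different groups at 0.980 to 0.985, and no 2 arrays were identical. Of the markers chosen for the line, VIM, CD44, MSN and AXL had DMSO means of 13.35, 13.28, 13.23 and 13.31 and SPARC 7.66. The 8 luminal markers had DMSO means from 5.96 (PGR) to 9.09 (ERBB2), with ESR1 at 6.82, CDH1 at 6.34 and FOXA1 at 8.70. FOXA1 was called higher in YW3-56 (0.50, limma adjusted p = 0.040) and GATA3 lower (-0.37, 0.022), and their part in the results was not tested. The arrays give no detection call, so these levels do not show absence. In bulk RNA, a shift in the share of cells of one state and a shift in RNA per cell cannot be told apart.

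Most secretory proteins carry a signal sequence that is caught by the signal recognition particle (SRP) as it leaves the ribosome. The SRP receptor docks the ribosome on the Sec61 channel, the chain passes through with the help of the translocon-associated protein (TRAP) complex and other partners, and signal peptidase removes the signal. Folded cargo then leaves the ER in vesicles made by the COPII coat, in which the GTPase SAR1 recruits the inner layer of SEC23 and SEC24 and the outer layer of SEC13 and SEC31, while KDEL receptors bring escaped ER residents back. The unfolded protein response is known to raise many of these genes together with ER chaperones.

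Across the whole machinery, few members moved past the threshold. Of the 36 measured members, 5 were called higher in YW3-56, 1 was called lower and 30 were not called. The background over all 18417 genes tested was 9.84% called higher and 11.5% called lower, so the members' shares of 13.9% and 2.78% were near the first and under the second. The higher members were SEC24D, KDELR3, SEC16A, SRP14 and SEC11C, and the lower member was SEC62. The median change of the 36 was 0.03, against -0.05 over all genes. The counts were 3 higher and 0 lower without DMSO replicate 2 or without YW3-56 replicate 1 or 3, and 4 higher and 0 lower without YW3-56 replicate 2. They were 9 and 3 with a trended and robust variance prior and 11 and 2 with array weights.

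The members that were not called were measured closely enough to bound their changes. For all 30, the 95% interval of the change lay inside a 1.5-fold difference in either direction. The same held for 13882 of the 14484 genes that were not called over the whole series. Standard errors of the 36 members ran from 0.07 to 0.11. The 3 treated values lay wholly above the 3 DMSO values for 9 members and wholly below them for 6, or 25% and 16.7%, where all genes gave 15.5% and 21.4%.

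**Figure D1:**
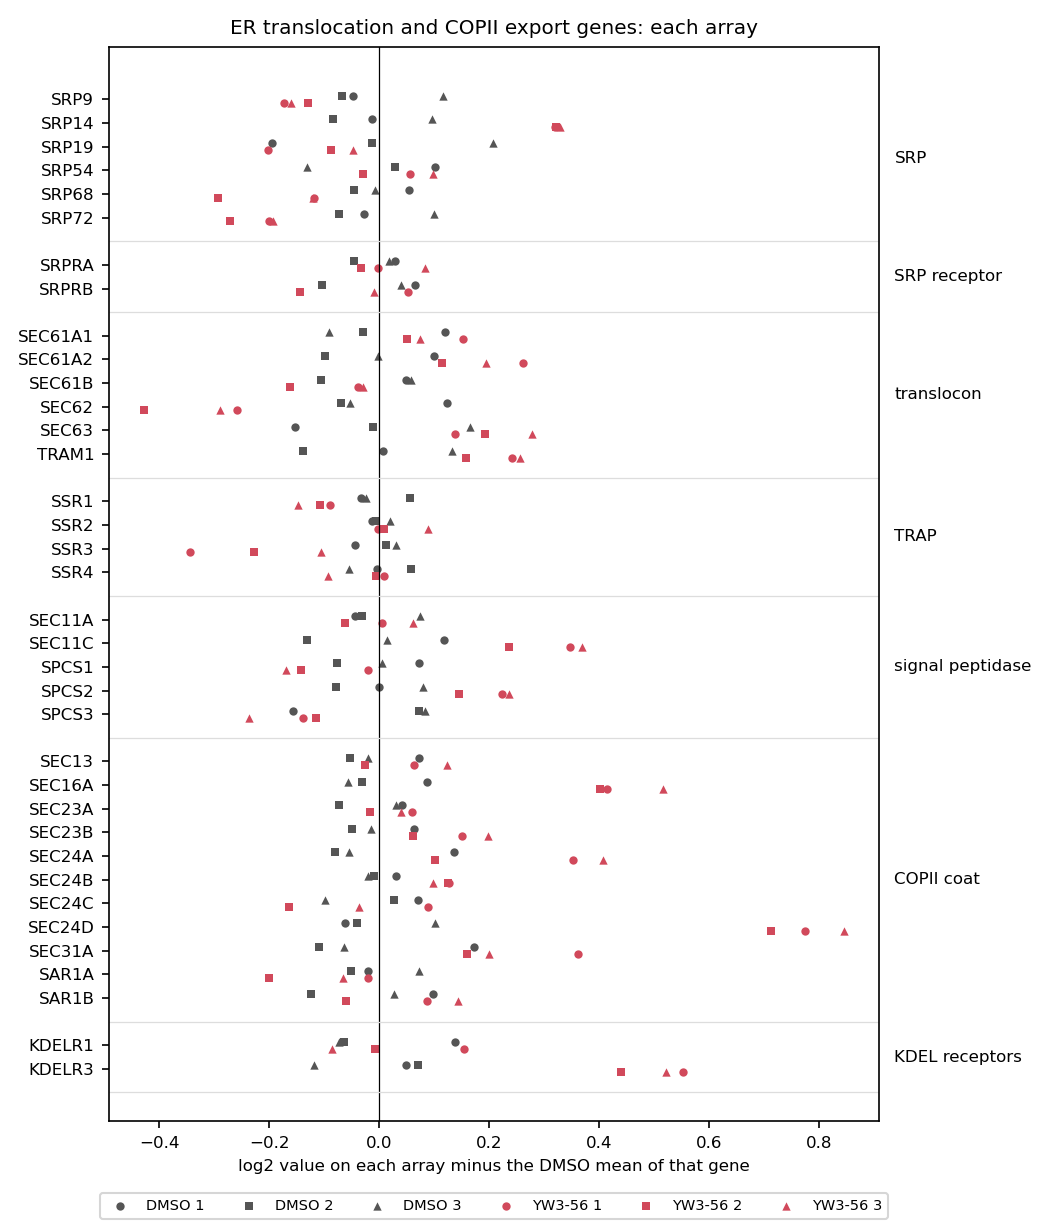
Each point is 1 array's log2 value for a member minus that gene's DMSO mean, for 3 DMSO arrays (grey) and 3 YW3-56 arrays (red), with the replicate number as the marker shape and members ordered by role. The YW3-56 points of SEC24D, KDELR3 and SEC16A stand clear to the right, and for 21 members the grey and red points overlap.

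The clearest rise was that of SEC24D, one of the 4 SEC24 cargo adaptors of the inner COPII coat. Its DMSO values were 9.85, 9.87 and 10.01, and its YW3-56 values were 10.69, 10.62 and 10.76. Every treated array was therefore above every control array, by more than the spread within either group. The change was 0.78 ± 0.08 SE, or 1.71-fold, with a limma adjusted p of 0.000525, and 98.2% of all genes had a lower change.

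KDELR3, one of the receptors that return proteins ending in a KDEL-type signal from the Golgi to the ER, was next. Its DMSO values were 10.69, 10.71 and 10.53, and its YW3-56 values were 11.20, 11.08 and 11.17. The groups did not overlap, and the change was 0.50 ± 0.08 SE (1.42-fold, limma adjusted p = 0.0034). SEC16A, a large scaffold that organises ER exit sites, read 10.27, 10.15 and 10.12 in DMSO and 10.59, 10.58 and 10.69 in YW3-56. Its change was 0.44 ± 0.08 SE (1.36-fold, limma adjusted p = 0.0047), again with every treated array above every control. SEC24D, KDELR3 and SEC16A were called under each of the 14 alternative settings tried, which include leaving out any 1 array.

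The other 3 calls were smaller and less stable. SRP14, which binds the Alu part of the SRP RNA together with SRP9, read 11.29, 11.22 and 11.40 in DMSO and 11.62, 11.62 and 11.63 in YW3-56. Its change was 0.32 ± 0.08 SE (1.25-fold, limma adjusted p = 0.017), and the treated arrays were nearly equal. Leaving out any 1 of the treated arrays ended that call (adjusted p = 0.0519, 0.0633 and 0.0720 for replicates 1, 2 and 3), and so did leaving out DMSO replicate 2 (0.0777).

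SEC11C, one of a pair of alternative catalytic subunits of signal peptidase, read 8.73, 8.48 and 8.63 in DMSO and 8.96, 8.85 and 8.98 in YW3-56. Its change was 0.32 ± 0.09 SE (1.25-fold, limma adjusted p = 0.035), and the groups did not overlap. Leaving out any 1 of the treated arrays ended the call (0.102, 0.0617 and 0.136 for replicates 1, 2 and 3), as did leaving out DMSO replicate 2 or 3 (0.131 and 0.0686). Centring of each array on its median also ended it (0.0565), as did a per-gene test without shared variance (0.0877).

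SEC62, a membrane protein that helps short or weakly hydrophobic chains into the channel and that also serves as a receptor for autophagy of the ER, was the member that fell. It read 9.10, 8.91 and 8.93 in DMSO and 8.72, 8.55 and 8.69 in YW3-56, with no overlap. The change was -0.32 ± 0.09 SE (1.25-fold lower, limma adjusted p = 0.030). The call ended when any 1 treated array was left out (0.0529, 0.117 and 0.0843 for replicates 1, 2 and 3) or DMSO replicate 2 was (0.0614). It also ended with median centring (0.117) and in the per-gene test (0.0783).

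**Figure D2:**
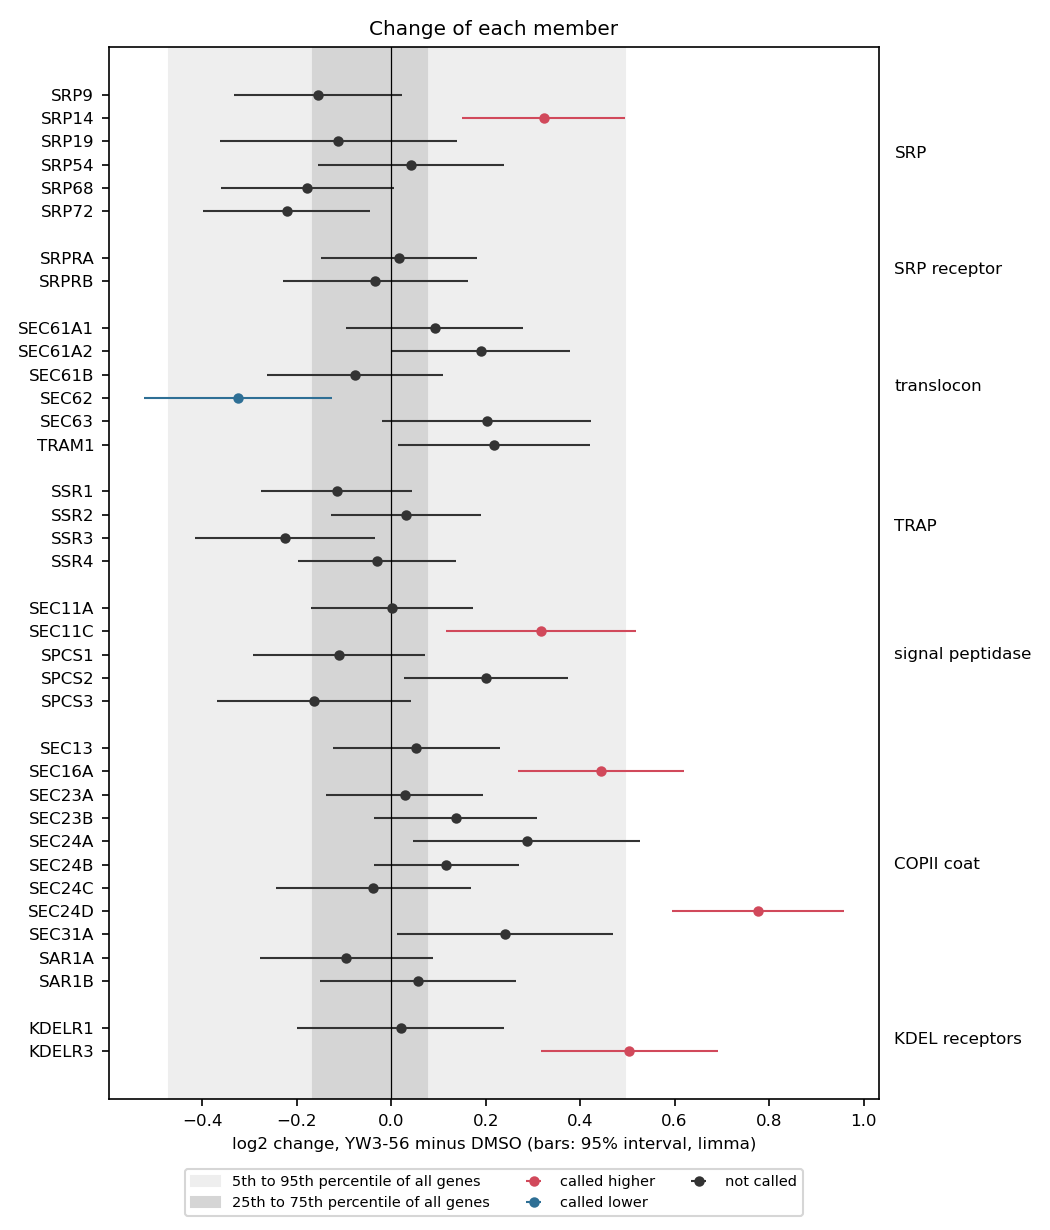
Each point is a member's log2 change, YW3-56 minus DMSO, with its 95% interval from limma, and the grey bands give the spread of the changes of all genes, the inner one from -0.17 to 0.08 (quartiles) and the outer one from -0.47 to 0.49 (with 5% of genes beyond either end). SEC24D, at 0.78, and KDELR3, at 0.50, lie beyond the outer band, and SEC62, at -0.32, is the blue point.

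The SRP itself did not move as a unit. Beside SRP14, its partner SRP9 read 11.65, 11.63 and 11.81 in DMSO and 11.52, 11.57 and 11.54 in YW3-56, a change of -0.15 ± 0.08 SE that was not called (limma adjusted p = 0.223). The array has 2 probe sets with the symbol SRP9, the other of which gave -0.12, and both list the same transcript accessions. SRP68 and SRP72, the large subunits that bind the other end of the particle, had changes of -0.18 (adjusted p = 0.171) and -0.22 (0.0799). For SRP72 the DMSO values of 12.24, 12.20 and 12.37 lay above the YW3-56 values of 12.07, 12.00 and 12.08.

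SRP9, SRP68 and SRP72 were thus lower on every treated array than on every control array without passing the threshold. Of all genes, 21.4% were wholly lower in the same way. SRP54, the subunit that holds the signal sequence, had a change of 0.04 ± 0.09 SE, and SRP19, which helps assemble the particle, had -0.11 ± 0.11 SE. The median of the 6 SRP members was -0.13. Of them 1 was called higher (16.7%, against 9.84% of all genes) and 0 lower (1 higher and 1 lower at an unadjusted p under 0.05 in limma). Over all genes that unadjusted threshold gave 13.5% higher and 18.1% lower, the shares against which such counts are to be read here. The receptor subunits SRPRA and SRPRB had changes of 0.02 ± 0.07 SE and -0.03 ± 0.09 SE, and neither reached an unadjusted p of 0.05.

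Among the channel genes, SEC62 was the 1 called. SEC61A1, the main pore-forming subunit, read 12.28, 12.13 and 12.07 in DMSO and 12.32, 12.22 and 12.24 in YW3-56, so the groups overlapped. Its change was 0.09 ± 0.08 SE, with a 95% interval from -0.10 to 0.28 (limma adjusted p = 0.522). SEC61A2, its less studied paralogue, had a change of 0.19 ± 0.08 SE that was not called (0.156), although its 3 treated values of 9.63, 9.49 and 9.57 lay above the DMSO values of 9.47, 9.27 and 9.37.

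SEC61B, the small beta subunit, had a change of -0.08 ± 0.08 SE with overlapping groups. SEC63, which brings the chaperone BiP to the channel and works with SEC62, had a change of 0.20 ± 0.10 SE (adjusted p = 0.197), opposite in sign to that of SEC62. TRAM1, a membrane protein beside the channel, read 11.66, 11.51 and 11.78 in DMSO and 11.89, 11.81 and 11.91 in YW3-56, a change of 0.22 ± 0.09 SE (0.129). Of the 6 measured translocon members, limma called 0 higher and 1 lower (16.7%, against 11.5% of all genes). At an unadjusted p under 0.05 it gave 2 higher and 1 lower, and the median change was 0.14.

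No TRAP subunit was called by limma, and 1 of the 4, SSR3, was lower at an unadjusted p under 0.05. SSR3 read 11.30, 11.36 and 11.38 in DMSO and 11.003, 11.119 and 11.241 in YW3-56, a change of -0.23 ± 0.08 SE (adjusted p = 0.0965). SSR1 also had every treated array below every control array (-0.12 ± 0.07 SE, limma adjusted p = 0.315). Wholly lower treated values were found for 21.4% of all genes. SSR2, at 0.03 ± 0.07 SE, and SSR4, at -0.03 ± 0.07 SE, had overlapping groups.

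In signal peptidase, SEC11C was called and 4 other subunits were not. SEC11A, the paralogue of SEC11C, read 9.34, 9.35 and 9.46 in DMSO and 9.39, 9.32 and 9.45 in YW3-56, so its change was 0.00 ± 0.07 SE, with a 95% interval from -0.17 to 0.17. SPCS2, an accessory subunit, had treated values of 11.94, 11.86 and 11.95 above DMSO values of 11.72, 11.64 and 11.79 and a change of 0.20 ± 0.08 SE that was not called (limma adjusted p = 0.103). Its other probe set gave 0.22, and the 2 probe sets list the same accessions. SPCS1 and SPCS3, the remaining accessory subunits, had changes of -0.11 and -0.16 with overlapping groups. The group's median was 0.00, with 1 of 5 called higher (20%, against 9.84% of all genes) and 0 lower. At an unadjusted p under 0.05 in limma, 0 were lower.

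In the COPII coat, 2 of 11 measured members (18.2%) were called higher and 0 lower, against 9.84% and 11.5% of all genes. These 2 were SEC24D and SEC16A, the latter a scaffold of exit sites that was counted with the coat. At an unadjusted p under 0.05, limma gave 4 higher and 0 lower. The coat's median change was 0.12, and 9 of the 11 changes were above 0. Over all genes the median was -0.05, and 6985 of 18417 changes were above 0. SEC31A, of the outer layer, had a change of 0.24 ± 0.10 SE (adjusted p = 0.138), while its partner SEC13 had 0.05 ± 0.08 SE. SEC23A and SEC23B, the GTPase-activating subunits of the inner layer, had changes of 0.03 ± 0.07 SE and 0.14 ± 0.07 SE. The GTPases SAR1A and SAR1B, which start coat assembly, had changes of -0.10 ± 0.08 SE and 0.06 ± 0.09 SE, so neither was called.

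Of the other SEC24 genes, SEC24A read 10.58, 10.36 and 10.39 in DMSO and 10.79, 10.54 and 10.85 in YW3-56. Its change was 0.29 ± 0.10 SE (limma adjusted p = 0.0937), and DMSO replicate 1 lay above YW3-56 replicate 2. SEC24B, with 0.12 ± 0.07 SE, had treated values of 10.91, 10.90 and 10.88 just above DMSO values of 10.81, 10.77 and 10.76, and SEC24C had -0.04 ± 0.09 SE. With replicate number as a block, SEC24A and SEC31A were called as well (adjusted p = 0.0446 and 0.0373). Leaving out DMSO replicate 1 gave the same pair of added calls (0.0345 and 0.0267), and leaving out YW3-56 replicate 2 added SEC24A (0.0483). KDELR1, the widely expressed KDEL receptor, read 12.54, 12.34 and 12.33 in DMSO and 12.55, 12.39 and 12.32 in YW3-56, a change of 0.02 ± 0.10 SE.

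Paralogues of 1 subunit were then compared within arrays, by subtracting one log2 value from the other on each array and asking whether that difference shifted with treatment. The 11 measurable pairs were tested with an exact permutation test, two-sided. With 3 arrays against 3 it cannot give a p under 0.10, so no pair could pass, and the smallest value adjusted over the 11 pairs was 0.157. The pairs with the largest shifts all involved SEC24D. A mean shift equals the difference between the changes of its 2 genes, so this order restates that SEC24D rose most and is no separate evidence. SEC24C minus SEC24D was 0.12, 0.05 and -0.21 in DMSO and -0.70, -0.89 and -0.89 in YW3-56, a shift of -0.81 ± 0.12 SE (exact p = 0.10).

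SEC24B minus SEC24D shifted by -0.66 ± 0.08 SE and SEC24A minus SEC24D by -0.49 ± 0.12 SE, each with no overlap between groups (exact p = 0.10 for both). KDELR1 minus KDELR3 was 1.84, 1.62 and 1.80 in DMSO and 1.36, 1.31 and 1.15 in YW3-56, a shift of -0.48 ± 0.09 SE (exact p = 0.10). SEC11A minus SEC11C shifted by -0.32 ± 0.08 SE (exact p = 0.10), again with all treated arrays below all controls. The smaller shifts of SEC24A minus SEC24C (0.32 ± 0.08 SE) and SEC23A minus SEC23B (-0.11 ± 0.03 SE) also separated the groups.

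The remaining pairs overlapped between groups. SEC61A1 minus SEC61A2 shifted by -0.10 ± 0.05 SE, SAR1A minus SAR1B by -0.15 ± 0.07 SE, SEC24A minus SEC24B by 0.17 ± 0.11 SE and SEC24B minus SEC24C by 0.15 ± 0.08 SE, each with an exact p of 0.20. Pairs within the SEC24 family share genes and are not independent of each other.

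**Figure D3:**
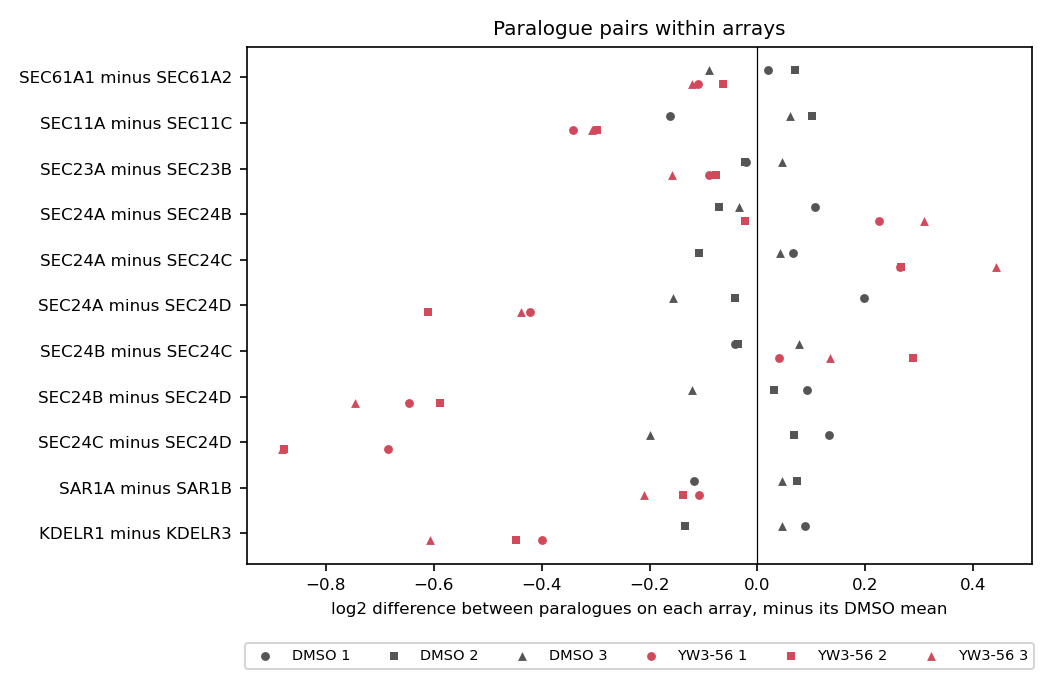
For each paralogue pair, points give the log2 difference between the 2 genes on each array, minus the mean of that difference in DMSO, with DMSO in grey, YW3-56 in red and the replicate number as the marker shape. The 3 pairs that subtract SEC24D and the pair KDELR1 minus KDELR3 have all red points at least 0.3 to the left of the DMSO mean.

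Promoters were examined for motifs through which the unfolded protein response is known to act. The RefSeq promoter table (GRCh38.p14) gives 250 bases before and 50 bases after annotated transcript starts, and it held 32 of the 36 measured members. SEC24D, SRPRA, SPCS1 and TRAM1 were not among them. Both strands were searched for the ER stress element ERSE (CCAAT, any 9 bases, then CCACG), for ERSE-II (ATTGG, any 1 base, then CCACG), for TGACGTGG, the core of the unfolded protein response element (UPRE) bound by XBP1 and ATF6, and for the core of the C/EBP-ATF response element (CARE; TGATG, any 1 base, then AA). TGACGTGG read on the other strand contains the CCACG of both ERSE forms, and no member promoter held more than 1 of the motifs.

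The UPRE core stood in the promoters of 8 of the 32 members, or 25%. It stood in 1.12% of the 14239 tested genes with a promoter in the table and in 0.729% of all 35116 promoters. Neither ERSE form was found in a member promoter, and they were rare in all promoters (0.0769% and 0.0541%). The CARE core was found in 1 member, SRPRB, or 3.13%, against 3.59% of tested genes. A match describes letters in the window and was not tested as a binding site.

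The 8 windows are shown so that the match and its flanking bases can be compared between members. Each is read 5′ to 3′ on the strand that carries the motif, with the motif in capitals and 11 bases on either side.
SEC24A: gtgagagtcggTGACGTGGcggcgaggccg
SSR4: tctggcagcacTGACGTGGcccctccctga
SRP19: tctctagtctcTGACGTGGcatgaagactt
KDELR3: tggccgggcggTGACGTGGccagggcggcc
SSR3: agtttccttgcTGACGTGGctgttatcaga
SEC62: ccggttccctcTGACGTGGagcgaggaggg
SEC23A: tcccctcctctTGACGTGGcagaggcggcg
SEC16A: ttcagtccggcTGACGTGGcaccagggcca

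In 7 of the 8 windows the base after the motif was C, the exception being SEC62. These 7 belonged to 2 members called higher, KDELR3 and SEC16A, and 5 that were not called. The base after the motif was not part of the planned search, and its count was not tested. Over all promoters, 94 of 262 such matches, or 35.9%, were followed by C. The motif pointed against the direction of the gene in 6 members and along it in SEC24A and SEC23A. With the start base as 0, the first base of the motif ran from -179, in SEC24A, to 15, in SEC16A, where it lay inside the annotated transcript. The table has 3 starts for SEC16A, 3 for SSR3 and 2 for SSR4, and the motif was found at 1 of each.

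The positions of the windows are given in GRCh38.p14, 1-based. The SEC24A window is at chr5:134648595-134648624 (plus strand), SSR4 at chrX:153794528-153794557 (minus), SRP19 at chr5:112861164-112861193 (minus) and KDELR3 at chr22:38468039-38468068 (minus). The SSR3 window is at chr3:156554148-156554177 (plus), SEC62 at chr3:169966779-169966808 (minus), SEC23A at chr14:39103221-39103250 (minus) and SEC16A at chr9:136484707-136484736 (plus). Against the start of its own window, the motif lay wholly upstream in all but SEC16A and SEC23A, and that of SEC23A spanned the start. In SSR3 and SSR4 that start was the most downstream of those annotated, and the motif lay downstream of their other starts. Of the motifs upstream of their window's start, those of SSR3, SSR4 and SEC24A lay inside the annotated span of the gene.

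For KDELR3, the member that rose with the motif upstream of its start, the 100 bases before the start (chr22:38467996-38468095, plus strand) are shown in the direction of the gene, so that the motif appears in capitals as its reverse complement.
KDELR3 upstream: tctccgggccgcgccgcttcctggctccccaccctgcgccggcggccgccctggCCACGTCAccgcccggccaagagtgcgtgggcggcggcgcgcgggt

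Members with the motif were found among those that rose, the one that fell and those not called. Of the 8 members with it, KDELR3 and SEC16A rose, SEC62 fell and 5 were not called, namely SEC24A, SSR4, SRP19, SSR3 and SEC23A. Their median change was -0.00089, against 0.04 for the 24 members with a promoter in the table and no UPRE core, of which 2 (SRP14 and SEC11C) rose. These differences were not tested. Over all tested genes, 18.2% of the 159 with a UPRE core were called higher and 10.1% lower, while those without it gave 10.4% and 11.8%, and the median changes were 0.02 and -0.05.

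**Figure D4:**
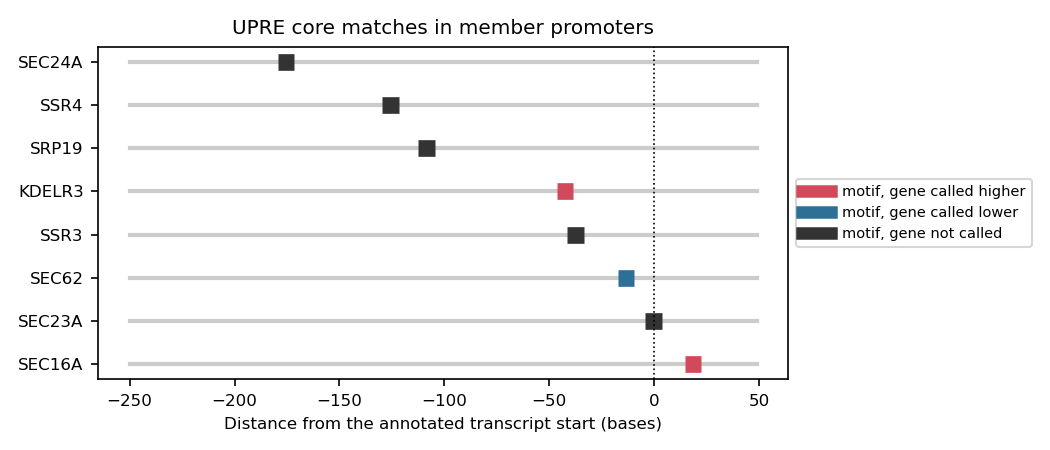
Each line is the 300-base promoter window of a member that holds the UPRE core, with the distance from the annotated transcript start on the x axis and the motif as a block coloured by the gene's call. Blocks of the called members KDELR3, SEC62 and SEC16A lie between -46 and 22, as do those of SSR3 and SEC23A, which were not called, and the 3 blocks farther upstream belong to SEC24A, SSR4 and SRP19, also not called.

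Genes that work beside this machinery were read from 8 lists chosen for their place in the pathway. The lists were chosen with earlier results of these data known, and their counts are a description. Of 81 measured genes in them, 19 (23.5%) were called higher and 6 (7.41%) lower, where all genes gave 9.84% and 11.5%. Of the exit-site partners and the SNAREs that fuse ER-derived vesicles, 7 of 11 were called higher (63.6%) and 0 lower, with a median change of 0.29. In the same list limma gave 8 higher and 0 lower at an unadjusted p under 0.05. By comparison the COPII coat, counted with the exit-site scaffold SEC16A, had 2 of 11 higher, and this difference between lists was not tested.

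MIA3 (TANGO1), which loads bulky cargo such as collagen at exit sites, read 9.70, 9.52 and 9.65 in DMSO and 10.66, 10.59 and 10.63 in YW3-56. Its change was 1.00 ± 0.08 SE (2.01-fold, limma adjusted p = 0.00018), larger than that of any member. The ER-Golgi SNAREs STX5 and BET1 rose by 0.78 ± 0.09 SE (adjusted p = 0.00069) and 0.70 ± 0.10 SE (0.0017). The other 4 genes of this list that rose, named after their values were seen, were MIA2 (0.68), a partner of MIA3, the SNARE GOSR2 (0.61), TFG (0.29), which organises exit sites, and PREB (0.28), the exchange factor that loads SAR1 with GTP. TFG was lost without DMSO replicate 3 (0.0692) and PREB without DMSO replicate 2 (0.0923), both were lost without any 1 YW3-56 array (0.0644 to 0.112 for TFG and 0.0675 to 0.0894 for PREB), and MIA2 had a change of 0.22 and no call (0.125) when its 2 probe sets, the other of which gave -0.24, were averaged.

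Among partners of the translocon, 3 of 10 rose (30%) and 1 fell (10%), where all genes gave 9.84% and 11.5%. HSPA5, the BiP chaperone that gates and pulls at the channel, rose by 1.20 ± 0.08 SE (2.30-fold, limma adjusted p = 0.00013). HYOU1, its exchange factor, rose by 0.82 ± 0.08 SE, and HSPA13, an HSP70-like protein of the ER, by 0.56 ± 0.09 SE. TRAM2, the paralogue of TRAM1, fell (-0.30 ± 0.08 SE, adjusted p = 0.034), a call lost without any 1 DMSO array (0.0535 to 0.0768), without YW3-56 replicate 2 or 3 (0.129 and 0.118), with median centring (0.135) and in the per-gene test (0.0729).

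Some membrane proteins are inserted by routes other than SRP. In the ER membrane complex, 3 of 9 genes fell (33.3%, against 11.5% of all genes) and 0 rose (0 higher at an unadjusted p under 0.05 in limma). Those that fell were EMC8 (-0.49 ± 0.11 SE), EMC6 (-0.43 ± 0.08 SE) and EMC2 (-0.38 ± 0.09 SE). GET1, a receptor for tail-anchored proteins, was the 1 gene of 7 called in its list (-0.40 ± 0.09 SE), a share of 14.3% that is near the 11.5% of all genes. Without YW3-56 replicate 2 or 3 the calls of EMC8 (0.0679 for both), EMC2 (0.0716 and 0.0509) and GET1 (0.0722 and 0.0698) were lost, and EMC2 was also lost without DMSO replicate 3 (0.0521). The per-gene test ended all 3 of these (0.0921, 0.0703 and 0.0691), and median centring ended EMC2 and GET1 (0.0511 and 0.0618).

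Of the oligosaccharyltransferase, which adds N-glycans as chains enter, 1 of 11 subunits rose, MAGT1 (0.36 ± 0.08 SE), and 0 fell, also at an unadjusted p under 0.05 in limma. The share called higher, 9.09%, was near the 9.84% of all genes. MAGT1 was lost without DMSO replicate 2 (0.0619) or YW3-56 replicate 1 (0.0507) and when its 2 probe sets were averaged (change 0.19, adjusted p = 0.131), the dimmer of which gave 0.02. Of 16 cargo receptors, TMED5 (0.38 ± 0.07 SE) rose and MCFD2 (-0.47 ± 0.07 SE), which carries coagulation factors with LMAN1, fell. Each was 6.25% of its list, under the 9.84% called higher and 11.5% called lower of all genes. In the COPI coat, which runs from the Golgi back to the ER, COPG1 (0.30 ± 0.08 SE) and COPA (0.25 ± 0.08 SE) rose among 8 genes and 0 fell, with 0 lower at an unadjusted p under 0.05 in limma. These 2 were 25% of the list, against 9.84% of all genes. COPA was lost without any 1 array (0.0507 to 0.174), and COPG1 without any 1 array but DMSO replicate 1 (0.0597 to 0.114). Both were also lost with median centring (0.0841 and 0.0709) and in the per-gene test (0.0521 and 0.0703).

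Regulators of ER stress rose in 5 of 9 genes, led by DDIT3 (3.36 ± 0.12 SE), EIF2AK3, the kinase PERK (2.83-fold), and XBP1 (1.25 ± 0.16 SE), and 0 fell, with 0 lower at an unadjusted p under 0.05 in limma. The share called higher was 55.6%, against 9.84% of all genes. XBP1 read 10.20, 10.49 and 10.92 in DMSO and 11.74, 11.79 and 11.83 in YW3-56, so the controls were farther apart than the treated arrays. The 5 include ATF4, singled out after its values were seen because its 2 probe sets disagreed. The brighter, which was counted, gave 0.49 (limma adjusted p = 0.042), and the other gave -0.54 and passed as lower (0.0061) in a fit of all probe sets with 1 symbol. The direction of ATF4 is therefore not settled. Its change was 0.32 without DMSO replicate 1, and its call was lost without DMSO replicate 2 (0.0814), without any 1 treated array (0.0884 to 0.142) and in the per-gene test (0.175). The values are for the gene as a whole, and the spliced form of XBP1 was not separated. Beside them, the members' largest change was the 0.78 of SEC24D.

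**Figure D5:**
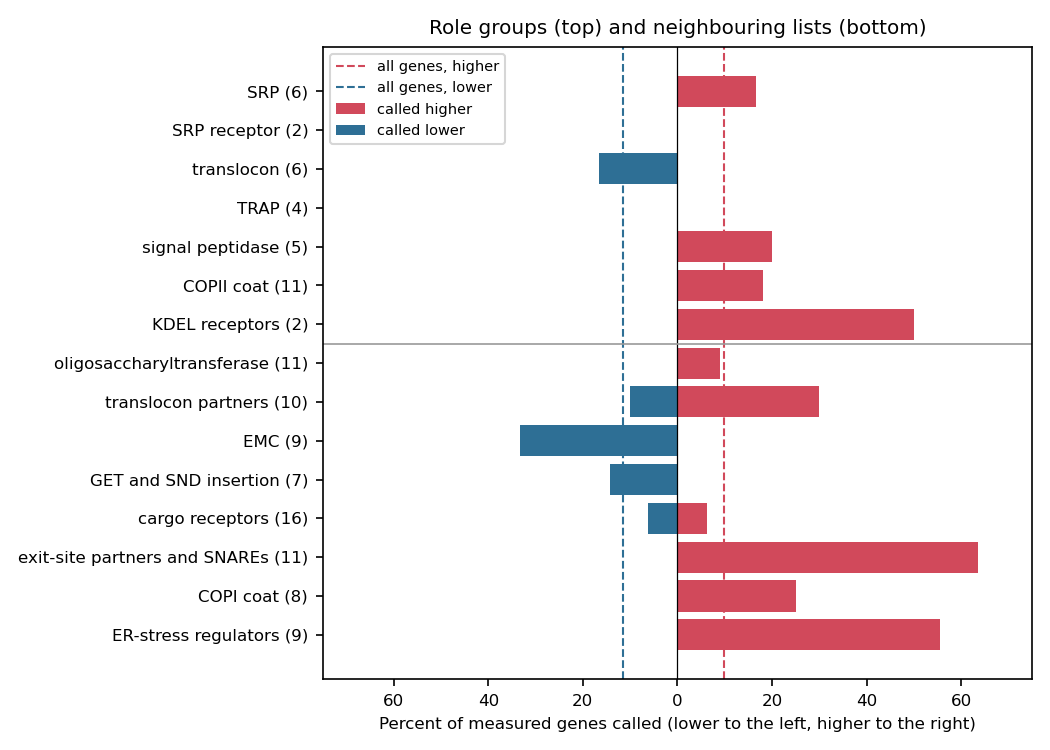
Bars give the percent of measured genes called higher (red, to the right) or lower (blue, to the left) in each role group of the members (top) and each neighbouring list (bottom), with the number measured in brackets and dashed lines at the shares of all genes, 9.84% and 11.5%. The longest bar is that of the exit-site partners and SNAREs, with 7 of 11 genes higher, and groups of 2 genes, such as the KDEL receptors with 1 of 2, move in steps of 50%.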

How the data were processed

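The authors deposited log2 expression values for 33297 probe sets, 1 column per array. Per the submitters' processing notes these were made with RMA and the affy package, with versions and genome build not given in the sources at hand. RMA includes a step that equalises distributions between arrays, so a shift of all transcripts could be hidden. The array medians of the deposited values still ran from 7.55 (DMSO replicate 1) to 7.74 (DMSO replicate 3). No read depth exists for arrays, and 3 per group limit the precision. The platform annotation, which can be old, gave 1 symbol for 19460 probe sets, several for 1754 and none for 12083.

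YW3-56 was compared with DMSO by limma 3.58.1 in R 4.3.3 (lmFit, eBayes, group as the only term, no filter), two-sided, with Benjamini-Hochberg adjustment over 18417 genes. The procedure was also run on simulated data to check its working, and no result given here rests on that run. All measured members are named, and of each neighbouring list up to 3 called genes per direction with the largest change, plus 4 exit-site genes and ATF4, named after their values were seen. The members and lists were chosen with earlier results of these data known.

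Same-numbered arrays of both groups deviated together from their group means, with correlations over genes of 0.54, 0.37 and 0.10, each over 0.1. DMSO replicate 3 correlated more with YW3-56 replicate 2 (0.42). Replicate number was therefore also fitted as a block. Other settings were a second quantile normalization, median centring, a filter on dim genes, probe-set means, other variance priors, array weights and leaving out each array. Paralogue pairs were tested with SciPy 1.17.1.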

Additional observations from a re-analysis of the deposited data

How the results depend on the processing

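Each of 36 members was refitted under 14 alternative settings. SEC24D, KDELR3 and SEC16A were called in all of them, 20 members in none, and 10 members without a call gained one in at least 1 setting. No called member changed sign. The count of members called higher, 5, became 9 with a trended and robust prior and 11 with array weights, and ran from 3 to 7 with 1 array left out. It was 7 with the replicate block, which lost none of the calls. The count called lower, 1, became 3 with the trended and robust prior, 2 with array weights, and 0 with median centring and in the per-gene test without shared variance, and ran from 0 to 1 with 1 array left out. Calls over all genes, 3933, rose to 6079 with array weights and ran from 2364 to 4689 with 1 array left out. The weights were uneven, at 2.94 for DMSO replicate 2 and 0.33 for DMSO replicate 1.

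In 9 members that were not called, the sign turned. With 1 array left out, changes ran from -0.029 to 0.039 for SEC11A, from -0.047 to 0.089 for KDELR1, from -0.024 to 0.093 for SRP54, from -0.017 to 0.041 for SRPRA and from -0.086 to 0.021 for SRPRB. They ran from -0.057 to 0.0016 for SSR4, from -0.0080 to 0.050 for SEC23A, from -0.10 to 0.026 for SEC24C and from -0.0058 to 0.12 for SAR1B. SRPRB was 0.028 with array weights. Averaging its opposed probe sets turned the ATF4 log2 change to -0.023. The cause of the other turns was not tested. No shift between paralogues moved by more than 1 pooled SD when 1 array was left out or probe sets were averaged. With groups this small, leaving out 1 array cannot move a shift that far. Averaging could not move it either, because each gene of the compared pairs had 1 probe set. The stability of these shifts was therefore not settled.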
